A study of Homo sapiens with 16 samples.

Results

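The actin filament and contractility genes described here are 49 genes, chosen by name for their known part in building, anchoring or pulling on actin filaments. Earlier results of these data were known when they were chosen, so the shares called below do not come from an independent list. They were found by gene symbol among the 66023 genes of the count table, and all 49 were present. Every one of them passed the filter on low counts in each comparison, so no member is left out below. Actin filaments are polar polymers that grow by the addition of actin subunits and are branched, bundled, capped and cut by partner proteins. Myosin II pulls on these filaments once its light chain is phosphorylated. In the colon epithelium the same machinery carries the brush border of microvilli, the belt below the cell junctions and the stress fibres of spreading cells.

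The samples came from SW480, a human colon adenocarcinoma cell line, in which the LIM domain protein AJUBA was knocked down or overexpressed and poly(A) RNA was sequenced. Parental cells (n = 2) carried no construct. The shScrambled line (n = 2) carried a non-mammalian control hairpin in the pLKO.1-puro lentivirus, shAjuba1 (n = 3) a hairpin against the coding region of AJUBA, and shAjuba2 (n = 3) a hairpin against its non-coding region. Ajuba OE (n = 3) carried AJUBA with FLAG and HA tags behind the CMV promoter in a lentivirus with a puromycin resistance gene, and its Control line (n = 3) carried the same construct with the AJUBA sequence excised. The transduced lines were stable lines selected with puromycin, and the excision in Control was clonal. Each line exists once, so line and construct cannot be told apart. The study speaks of technical replicates and no label says that they came from separate cultures, so the p-values measure only the spread among these samples.

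Values are given as RPM, the share of a sample's counted read pairs that fell on a gene, times 1000000. Total counts were 30132396 to 69684675 per sample. AJUBA itself stood at 83.4 and 81.6 RPM in shScrambled, at 49.6, 47.3 and 53.5 RPM in shAjuba1 and at 60.3, 68.6 and 57.1 RPM in shAjuba2. Both knockdown lines lay below the control hairpin in every sample, by a log2 fold change of -0.73 (SE 0.08, adjusted p = 2.41e-05) in shAjuba1 and of -0.46 (SE 0.13, adjusted p = 0.0796) in shAjuba2, where the call was not made (edgeR quasi-likelihood test, Benjamini-Hochberg). In Ajuba OE, AJUBA was at 550, 462 and 566 RPM against 89.6, 100.5 and 89.4 RPM in Control. Of 10 colon epithelium markers, 6 were above 1 RPM in every sample and KRT20, CDX1, CEACAM5 and LGALS4 were below it. The summed level of 6 smooth muscle markers was 7.12 to 10.5 RPM, that of 8 fibroblast markers 6.34 to 37.8 RPM, that of 5 leukocyte markers 2.65 to 7.02 RPM and that of 4 endothelial markers 2.24 to 5.41 RPM.

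Replicate 2 of shAjuba2, of Control and of Ajuba OE stood apart in these genes. The lowest of the 3 samples was replicate 2 for 43 of the 49 genes in shAjuba2, for 37 in Control and for 42 in Ajuba OE, and for 23 in shAjuba1. Over the genes of the whole table with at least 10 RPM, replicate 2 was lowest for 60.9%, 56.0%, 62.2% and 39.6% in the same order. The median log2 ratio of replicate 2 to the mean of replicates 1 and 3 over the 49 genes was -0.45 in shAjuba2, -0.21 in Control, -0.24 in Ajuba OE and -0.06 in shAjuba1. The ratio tended to be lower for shorter transcripts, with a Spearman correlation between this ratio and transcript length of 0.40 over the 49 genes in shAjuba2, 0.22 in Control, 0.27 in Ajuba OE and 0.18 in shAjuba1. Over all genes of at least 10 RPM it was 0.31, 0.19, 0.20 and 0.16 in the same order. There were exceptions, such as the short TPM2, with a log2 ratio of 0.22 in shAjuba2, and the long CDC42, with -0.85. MYL12B, a regulatory light chain of myosin II with a short transcript, was at 243.8, 98.7 and 271.1 RPM in shAjuba2. What set these libraries apart was not tested. Counts of called members in the comparisons that use these libraries are given with and without them. Line means, their ratios and the results for other actin genes include them, as do values of single genes unless stated. Counts of called genes with libraries left out, or with Parental as the control, come without the share of all genes called in that fit. They show how far the calls depend on the setting and are no result about these genes alone.

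**Figure D1:**
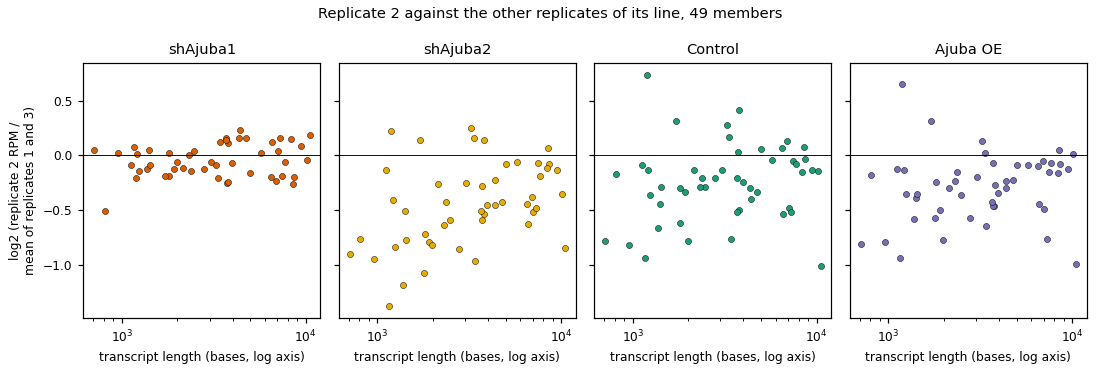
Each point is a member gene, with the length of its MANE Select transcript in bases on a log axis and the log2 ratio of replicate 2 RPM to the mean of replicates 1 and 3 on the vertical axis, for the 4 lines with 3 samples. In shAjuba2, Control and Ajuba OE most points lie below 0 (medians -0.45, -0.21 and -0.24), whereas in shAjuba1 they lie around 0 (median -0.06).

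Many actin genes are known targets of serum response factor, which binds the CArG box. The promoter table of RefSeq (GRCh38.p14), which holds 250 bases before to 50 bases after each start, had 43 of the 49 genes and 27305 promoters in all, and ACTB, MYL9, RAC1, CTTN, VIL1 and TAGLN had no entry. A CArG box, on either strand, was in 6 of the 43 promoters (14.0%), against 1.29% of all promoters. The start in that table lay within 1000 bases of the MANE Select start for 37 of the 43 genes, and 4 of those 37 promoters (10.8%) held the box. The entries of MYLK and TPM4 started 263784 bases after and 8957 bases before the MANE Select start, so their stretches are left out. The 4 stretches are shown so that the sequence can be set beside the levels, with the CArG box in capitals, 5′ to 3′ on the strand of the gene.
ROCK2: aaatgtacttCCTTAAATGGgtttactggg
ACTG1: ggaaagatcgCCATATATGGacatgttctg
CNN2: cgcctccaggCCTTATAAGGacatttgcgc
FLNA: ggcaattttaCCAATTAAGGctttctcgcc

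These stretches are ROCK2 at chr2:11345491-11345520 (minus strand), ACTG1 at chr17:81512874-81512903 (minus), CNN2 at chr19:1026509-1026538 (plus) and FLNA at chrX:154374709-154374738 (minus). In each of them the box lay before the start, starting at base -73 in ROCK2, -89 in CNN2 and -94 in ACTG1 and FLNA. The start in the table was 801 bases before the MANE Select start for ROCK2 and the same as it for the other 3 genes. In shAjuba1 against shScrambled, ACTG1 (log2 fold change 0.40), FLNA (0.27) and CNN2 (0.23) rose and ROCK2 (0.12) did not pass the test. Against Parental, ROCK2 fell by 0.27 on the log2 scale (adjusted p = 0.0265, edgeR) and ACTG1 (0.09), FLNA (-0.17) and CNN2 (-0.10) did not pass. The letters GGAATG, on either strand, were in 7 of the 43 promoters (16.3%) and in 14.0% of all promoters. A match describes the letters only and is no measure of binding.

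The levels spanned a wide range. Per kilobase of MANE Select transcript and averaged over the 6 lines, the cytoplasmic actins ACTB and ACTG1 were highest, at 1562 and 940.5 RPM per kb. They were followed by MYL6, the essential light chain of myosin II, at 673 RPM per kb and by PFN1, a profilin that feeds actin subunits to growing ends, at 467 RPM per kb. The lowest were CNN3, a calponin that binds along filaments, at 0.73 RPM per kb, MYLK, the kinase that phosphorylates the myosin light chain, at 1.38 RPM per kb, and TAGLN, a filament-binding protein of the calponin family, at 2.84 RPM per kb. CNN3 alone had a mean under 10 RPM, and the 49 genes together held 1.49% to 2.11% of the counts of a sample.

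Across the 6 lines, 32 of the 49 genes differed (adjusted p under 0.05, edgeR quasi-likelihood test over all 16 samples), which is 65.3% beside 45.7% of all genes tested and 51.1% of the genes with a mean of at least 10 RPM. The ratio of the highest to the lowest line mean had a median of 1.51 over the 49 genes of 1.71 over all genes tested and of 1.42 over the 10141 genes of at least 10 RPM. It reached 5.96 for TPM1, 5.51 for CNN3, 5.45 for MYLK, 5.04 for VIL1, 3.27 for RHOB and 3.22 for LIMA1. The 17 genes that did not pass were ACTG1, ACTN1, CFL1, DSTN, PFN1, MYL6, MYL12A, MYL12B, RHOA, RAC1, CDC42, ARPC2, ACTR2, ACTR3, RDX, CNN2 and PDLIM7. By line mean, 23 genes were highest in Parental, 16 were lowest in shAjuba1 and 11 were lowest in Ajuba OE. These means include replicate 2 of shAjuba2, Control and Ajuba OE, which was low for most of the 49 genes. Parental had no replicate that stood apart in this way. The same counts over all genes are not given, so this ranking is no result about these genes alone. Without replicate 2 of shAjuba2, Control and Ajuba OE, 42 genes differed.

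**Figure D2:**
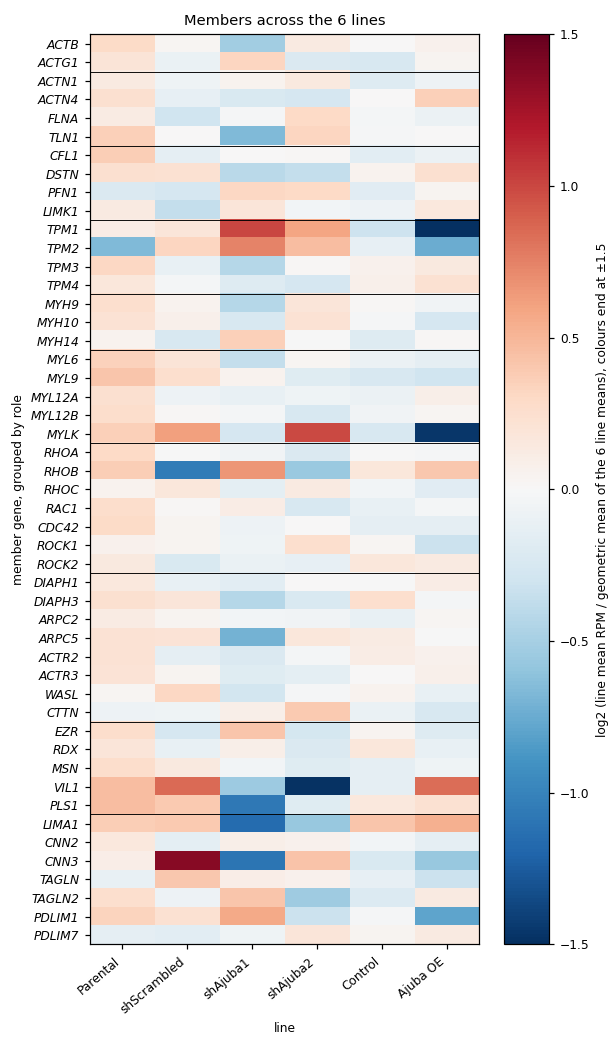
The colours give, for each of the 49 genes (rows, grouped by role) and each line (columns), the log2 ratio of the line mean RPM to the geometric mean of the 6 line means, and they end at 1.5 in either direction. TPM1 and MYLK are darkest blue in Ajuba OE, VIL1 in shAjuba2, and CNN3, LIMA1 and PLS1 are blue in shAjuba1.

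In shAjuba1 against shScrambled, 28 of the 49 genes were called, 12 higher and 16 lower. That is 57.1%, beside 38.4% of all genes tested (18.2% higher and 20.2% lower) and 45.0% of the genes of at least 10 RPM, and 33 genes were under an unadjusted p of 0.05. The median log2 fold change was -0.11 over the 49 genes and -0.01 over all genes. The genes that fell furthest were CNN3, LIMA1, PLS1 and VIL1, and the gene that rose furthest was RHOB. Other genes of the same roles as those that fell, such as EZR and TAGLN2, rose. Against Parental the log2 fold changes were -1.22 for CNN3, -1.55 for LIMA1, -1.56 for PLS1, -1.04 for VIL1 and 0.26 for RHOB. With Parental cells as the control, all 16 genes that were lower were called lower again, while 4 of the 12 that were higher (PFN1, TPM1, TPM2 and RHOB) were called higher again. The split against Parental was 4 higher and 29 lower, without the share of all genes called in that fit. Parental had the highest line mean of all 6 lines for 23 of the 49 genes. Lower values against it are therefore not shown to be particular to shAjuba1.

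The 2 cytoplasmic actins moved in opposite directions in shAjuba1. ACTB was at 1997, 1787 and 2066 RPM against 2899 and 2796 RPM in shScrambled, and ACTG1 was at 2250.3, 2100.5 and 2327 RPM against 1709 and 1637 RPM. ACTB was lower in all 3 samples and ACTG1 higher in all 3, with no overlap of the lines. The log2 fold changes were -0.56 (SE 0.09, adjusted p = 0.000275) for ACTB and 0.40 (SE 0.09, adjusted p = 0.00271) for ACTG1 by edgeR's test. The coding sequences of these genes are nearly alike and both have processed pseudogenes, so the division of reads between them depends on the authors' counting. Against Parental ACTG1 had a log2 fold change of 0.09 (adjusted p = 0.394, edgeR), and in an edgeR fit on all 16 samples neither gene was called (adjusted p = 0.0501 and 0.179).

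Among the filament crosslinkers and adhesion linkers, TLN1, the talin that ties integrins to actin, fell by 0.69 on the log2 scale in shAjuba1 and FLNA, which crosslinks filaments into networks, rose by 0.27 (adjusted p = 0.0486, edgeR). The alpha-actinins ACTN1 (0.10) and ACTN4 (-0.12) did not pass. FLNA turned to -0.17 (adjusted p = 0.196, edgeR) against Parental. Of the filament turnover genes, the depolymerizing factor DSTN fell by 0.66, whereas PFN1 rose by 0.54 and LIMK1, the kinase that inactivates cofilin, rose by 0.53. The cofilin CFL1 (0.12) did not pass. LIMK1 was at 0.02 (adjusted p = 0.864, edgeR) against Parental.

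Tropomyosins wrap filaments and set which partners can bind. In shAjuba1, TPM1 and TPM2 rose by 0.80 and 0.41 on the log2 scale, TPM3 fell by 0.34 and TPM4 (-0.17) did not pass. Of the myosin II heavy chains, MYH9 and MYH10 fell by 0.50 and 0.32 and MYH14 rose by 0.58. MYH14 was not called against Parental (0.28, adjusted p = 0.0796, edgeR). Of the light chains MYL6 fell by 0.57, while MYL9 (-0.22), MYL12A (-0.05) and MYL12B (-0.06) did not pass, and the kinase MYLK fell by 0.87. MYL12A and MYL12B are close copies, so the division of reads between them is uncertain.

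Of the 7 genes for signalling to filaments and myosin, RHOB rose by 1.70, RHOC fell by 0.34, and RHOA (-0.06), RAC1 (0.07), CDC42 (-0.13), ROCK1 (-0.11) and ROCK2 (0.12) did not pass in shAjuba1. Of the 8 genes of nucleation and branching, 3 fell and 5 did not pass. These were ARPC5 (-0.93), a subunit of the Arp2/3 complex that branches filaments, DIAPH3 (-0.63), a formin that elongates them, and WASL (-0.60), which activates Arp2/3. DIAPH1 (-0.06), ARPC2 (-0.10), ACTR2 (-0.09), ACTR3 (-0.24) and the Arp2/3 activator cortactin, CTTN (0.13), did not pass. Of the Arp2/3 subunits outside the 49, ARPC3 (0.95) and ARPC5L (0.25) rose, ARPC1A fell by 0.32, and ARPC1B (-0.17) and ARPC4 (0.00) did not pass. ARPC3 was at 75.1, 78.9 and 59.6 RPM in shAjuba1 and at 38.8 and 34.3 RPM in shScrambled, the lowest of all samples. In Parental ARPC3 was above shAjuba1, at 108 and 120 RPM, so its direction depends on which control is used.

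Of the membrane linkers and microvillus bundlers, VIL1 and PLS1 fell by 1.41 and 1.48 in shAjuba1 and EZR, the ezrin that ties actin to the plasma membrane, rose by 0.65. The other two proteins of the ezrin family, RDX (0.19) and MSN (-0.20), did not pass. Of the stress fibre and filament-binding genes, CNN3 and LIMA1 fell by 2.45 and 1.56, and TAGLN2, PDLIM1 and CNN2 rose by 0.48, 0.33 and 0.23. TAGLN (-0.33) and PDLIM7 (0.08) did not pass, and exons of PCSK7 on the opposite strand overlap 34.1% of the exon bases of TAGLN. Against Parental EZR (0.13), TAGLN2 (0.13) and PDLIM1 (0.21) were not called and CNN2 turned to -0.10 (adjusted p = 0.314, edgeR).

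**Figure D3:**
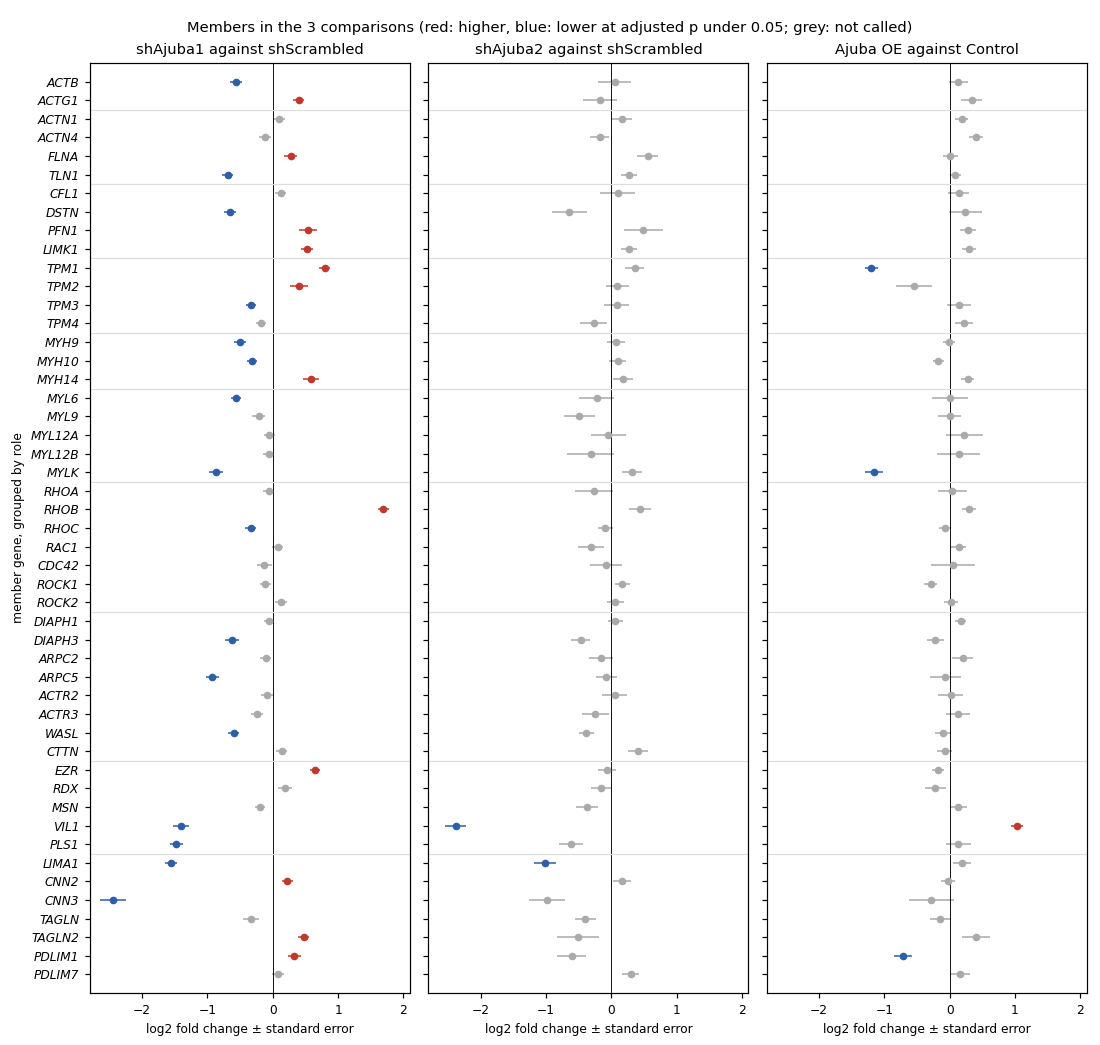
Points are the log2 fold changes of the 49 genes, grouped by role, with bars of 1 standard error, in the 3 comparisons with the study's controls. Red and blue points are called higher and lower (12 and 16 in shAjuba1, 0 and 2 in shAjuba2, 1 and 3 in Ajuba OE), and grey points are not called.

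In shAjuba2 against shScrambled, 2 of the 49 genes were called, VIL1 and LIMA1, both lower. That is 4.08%, beside 7.46% of all genes tested (3.12% higher and 4.34% lower), and 13 genes were under an unadjusted p of 0.05. Without replicate 2 of shAjuba2, 15 genes were called, 6 higher (FLNA, TLN1, TPM1, MYLK, RHOB and CTTN) and 9 lower (DSTN, DIAPH3, WASL, VIL1, PLS1, LIMA1, CNN3, TAGLN and PDLIM1). With either sample of shScrambled left out, LIMA1 was no longer called (adjusted p = 0.145 without replicate 1 and 0.127 without replicate 2, edgeR) and VIL1 alone remained. The standard errors in this comparison were up to 0.36, for MYL12B, and differences well above 1 standard error went uncalled. CNN3, for instance, was not called at -0.98 (SE 0.27, adjusted p = 0.0724, edgeR). ACTB shows the spread, at 3018, 2137 and 4009 RPM in shAjuba2.

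In Ajuba OE against Control, 4 genes were called, VIL1 higher and TPM1, MYLK and PDLIM1 lower. That is 8.16%, beside 5.24% of all genes tested (2.28% higher and 2.96% lower), and 10 genes were under an unadjusted p of 0.05. The other 45 genes had log2 fold changes between -0.55 (TPM2) and 0.41 (ACTN4). Without replicate 2 of the lines that stood apart, 7 genes were called, with ACTN4 (0.44), TPM2 (-0.54) and TAGLN2 (0.37) added. Deviations from the line mean, over all genes tested, correlated between the lines at 0.51 for replicate 2. For replicates 1 and 3 they correlated at 0.10 and -0.05. A fit with the replicate number as a block called more genes, and its count is given below with the other settings. Against Parental, TPM1, MYLK and PDLIM1 were lower again and VIL1 was not called (0.43, adjusted p = 0.0621, edgeR).

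TPM1 (ENSG00000140416, chromosome 15, 63042620 to 63071915, plus strand, hg38) encodes tropomyosin 1 and had the widest range. It was at 54.5 and 59.1 RPM in Parental, 59.2 and 60.1 RPM in shScrambled, 107.0, 105.4 and 101.8 RPM in shAjuba1 and 82.3, 64.9 and 90.1 RPM in shAjuba2. In Control it was at 42.9, 39.6 and 43.97 RPM and in Ajuba OE at 17.9, 16.5 and 18.3 RPM. Both knockdown lines lay above every sample of the other 4 lines, and Ajuba OE lay below every other sample. The log2 fold change was 0.80 (SE 0.08, adjusted p = 9.57e-06) in shAjuba1, 0.36 (SE 0.15, adjusted p = 0.186) in shAjuba2 and -1.20 (SE 0.10, adjusted p = 0.000794) in Ajuba OE (edgeR). With its replicate 2 left out, shAjuba2 was at 0.47 (SE 0.10, adjusted p = 0.00194, edgeR). The antisense gene TPM1-AS overlaps 18.0% of its exon bases and had 121 counts in all samples together, against 41708 for TPM1.

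MYLK (ENSG00000065534, chromosome 3, 123610049 to 123884332, minus strand) was at 15.5 and 15.9 RPM in Parental, 20.2 and 17.3 RPM in shScrambled, 10.5, 10.2 and 10.4 RPM in shAjuba1 and 26.5, 20.5 and 25.8 RPM in shAjuba2. It was at 10.8, 9.67 and 10.6 RPM in Control and at 4.004, 4.46 and 4.88 RPM in Ajuba OE. The knockdown lines lay on opposite sides of shScrambled, and Ajuba OE lay below every other sample. MYLK had a log2 fold change of -0.87 (SE 0.11, adjusted p = 3.92e-05) in shAjuba1, 0.33 (SE 0.15, adjusted p = 0.228) in shAjuba2 and -1.16 (SE 0.13, adjusted p = 0.00301) in Ajuba OE (edgeR). With its replicate 2 left out, shAjuba2 was at 0.42 (SE 0.11, adjusted p = 0.0122, edgeR).

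PDLIM1 (ENSG00000107438, chromosome 10, 95237572 to 95291012, minus strand) encodes a PDZ and LIM domain protein that binds alpha-actinin on stress fibres. It was at 32.0 and 35.5 RPM in Parental, 32.2 and 30.5 RPM in shScrambled, 42.5, 38.2 and 38.8 RPM in shAjuba1 and 24.3, 14.5 and 25.2 RPM in shAjuba2. It was at 27.0, 23.0 and 29.4 RPM in Control and at 17.1, 13.1 and 16.3 RPM in Ajuba OE. The shAjuba1 samples lay above all the others, and Ajuba OE lay below Control without overlap. In Ajuba OE the log2 fold change was -0.71 (SE 0.14, adjusted p = 0.0283, edgeR), and the call was lost when any library of the comparison other than Control replicate 2 was left out (adjusted p 0.0552 to 0.142).

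VIL1 (ENSG00000127831, chromosome 2, 218419121 to 218453295, plus strand) encodes villin, which bundles and cuts actin in microvilli. It was at 45.2 and 39.7 RPM in Parental, 54.4 and 56.3 RPM in shScrambled, 18.7, 19.2 and 25.5 RPM in shAjuba1 and 12.9, 8.88 and 11.2 RPM in shAjuba2. It was at 26.0, 29.1 and 29.3 RPM in Control and at 59.1, 52.6 and 53.6 RPM in Ajuba OE. All samples of both knockdown lines lay below every other sample. By edgeR's test VIL1 had a log2 fold change of -1.41 (SE 0.12, adjusted p = 1.7e-06) in shAjuba1, -2.38 (SE 0.16, adjusted p = 0.000683) in shAjuba2 and 1.03 (SE 0.10, adjusted p = 0.00124) in Ajuba OE (edgeR). The Ajuba OE samples lay near shScrambled, and Control itself was below shScrambled by 0.97 on the log2 scale (adjusted p = 0.0047, edgeR). Exons of USP37 on the opposite strand overlap 44.2% of the exon bases of VIL1. USP37 was not called in the 3 comparisons (log2 fold changes 0.24, 0.00 and -0.03).

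LIMA1 (ENSG00000050405, chromosome 12, 50175788 to 50283520, minus strand) encodes EPLIN, which crosslinks filaments and slows their turnover at cell junctions. It was at 82.7 and 84.5 RPM in Parental, 87.9 and 82.3 RPM in shScrambled, 29.6, 31.1 and 26.7 RPM in shAjuba1 and 53.0, 34.1 and 44.3 RPM in shAjuba2. It was at 96.2, 78.1 and 84.5 RPM in Control and at 103.0, 76.0 and 102.4 RPM in Ajuba OE. Both knockdown lines lay below every sample of the other 4 lines, and shAjuba1 lay below shAjuba2. LIMA1 changed on the log2 scale by -1.56 (SE 0.09, adjusted p = 1.15e-07) in shAjuba1, -1.01 (SE 0.17, adjusted p = 0.0163) in shAjuba2 and 0.18 (SE 0.14, adjusted p = 0.564) in Ajuba OE (edgeR).

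PLS1 (ENSG00000120756, chromosome 3, 142596393 to 142713664, plus strand) encodes plastin 1, a bundling protein of intestinal microvilli. It was at 60.5 and 63.1 RPM in Parental, 61.6 and 55.8 RPM in shScrambled, 21.7, 22.9 and 19.3 RPM in shAjuba1 and 42.9, 29.6 and 46.4 RPM in shAjuba2. It was at 58.8, 38.7 and 52.6 RPM in Control and at 60.6, 42.1 and 55.5 RPM in Ajuba OE. The shAjuba1 samples were the lowest of all, and shAjuba2 lay below shScrambled without overlap but overlapped Control. For PLS1 the fitted log2 fold change was -1.48 (SE 0.10, adjusted p = 3.18e-07) in shAjuba1 and -0.62 (SE 0.18, adjusted p = 0.0864) in shAjuba2 (edgeR). With its replicate 2 left out, shAjuba2 was at -0.45 (SE 0.10, adjusted p = 0.0033, edgeR).

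ARPC5 (ENSG00000162704, chromosome 1, 183620846 to 183635783, minus strand) was at 102.7 and 120.4 RPM in Parental, 114.0 and 105.9 RPM in shScrambled, 60.1, 62.9 and 52.5 RPM in shAjuba1 and 115.6, 85.3 and 123.1 RPM in shAjuba2. It was at 127.5, 80.7 and 104.2 RPM in Control and at 123.3, 65.6 and 98.4 RPM in Ajuba OE. The shAjuba1 samples lay below all the others. The log2 fold change was -0.93 (SE 0.10, adjusted p = 1.06e-05) in shAjuba1 and -0.08 (SE 0.16, adjusted p = 0.803) in shAjuba2 (edgeR).

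CNN3 (ENSG00000117519, chromosome 1, 94896949 to 94927223, minus strand) was at 1.097 and 1.59 RPM in Parental, 3.24 and 3.20 RPM in shScrambled, 0.69, 0.56 and 0.50 RPM in shAjuba1 and 2.21, 1.08 and 1.75 RPM in shAjuba2. It was at 1.31, 0.69 and 1.21 RPM in Control and at 0.83, 0.54 and 1.16 RPM in Ajuba OE. The shScrambled samples lay above all the others, and the shAjuba1 samples overlapped those of Ajuba OE. The log2 fold change of shAjuba1 was -2.45 (SE 0.20, adjusted p = 1.22e-06) against shScrambled and -1.22 (SE 0.25, adjusted p = 0.00275) against Parental (edgeR).

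RHOB (ENSG00000143878, chromosome 2, 20447074 to 20449440, plus strand) encodes a short-lived signalling protein of endosomes and the plasma membrane. It was at 235.3 and 260.0 RPM in Parental, 95.3 and 89.7 RPM in shScrambled, 296.4, 283.0 and 329.0 RPM in shAjuba1 and 130.8, 105.8 and 153.4 RPM in shAjuba2. It was at 233.6, 195.7 and 217.8 RPM in Control and at 256.7, 235.3 and 265.7 RPM in Ajuba OE. The 2 shScrambled samples were the lowest of all 16, so the values for the knockdown lines depend on which control is used. The log2 fold change of shAjuba1 was 1.70 (SE 0.09, adjusted p = 3.64e-08) against shScrambled and 0.26 (SE 0.08, adjusted p = 0.0271) against Parental (edgeR). That of shAjuba2 turned from 0.44 (SE 0.16, adjusted p = 0.144) against shScrambled to -0.99 (SE 0.17, adjusted p = 0.0249) against Parental (edgeR). With its replicate 2 left out, shAjuba2 was at 0.56 (SE 0.10, adjusted p = 0.000841, edgeR) against shScrambled.

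**Figure D4:**
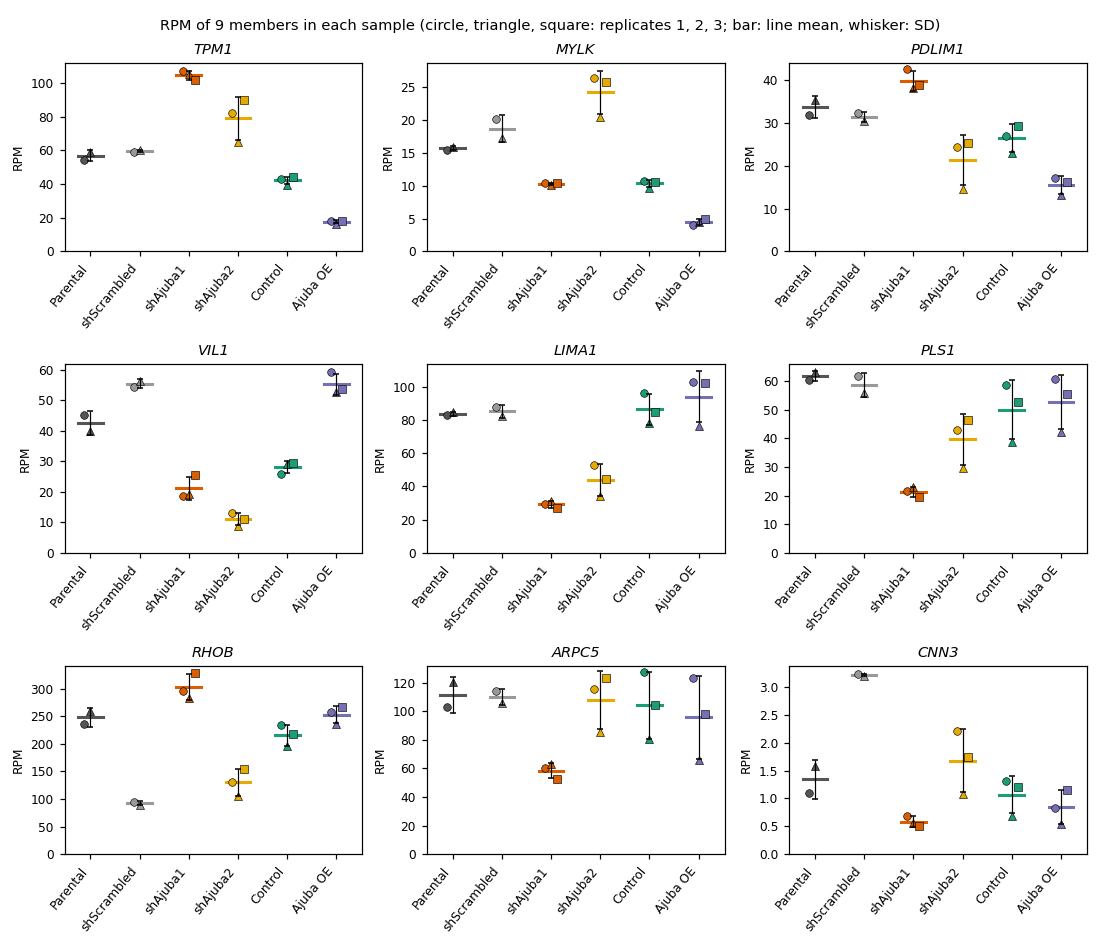
Points are RPM on a linear axis from 0 in each of the 16 samples for 9 genes, with circles, triangles and squares for replicates 1, 2 and 3, bars for the line mean and whiskers for the SD. VIL1 and LIMA1 are lowest in both knockdown lines, TPM1 and MYLK are lowest in Ajuba OE, and RHOB and CNN3 show shScrambled apart from Parental and Control.

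The lines Control and shScrambled both carried a lentivirus and no intended change of AJUBA, and 5 of the 49 genes were called between them. That is 10.2%, beside 5.51% of all genes tested (2.00% higher and 3.51% lower). RHOB was higher in Control (log2 fold change 1.23) and TPM1 (-0.49), MYLK (-0.84), VIL1 (-0.97) and CNN3 (-1.60) were lower. This comparison shares the shScrambled samples with those of the knockdown lines. With shScrambled replicate 1 left out 0 of the 49 passed edgeR's adjusted threshold and 7 were under an unadjusted p of 0.05, and with replicate 2 left out 0 passed and 6 were under it. The log2 fold changes without replicate 2 of shScrambled were 1.18 for RHOB, -0.49 for TPM1, -0.96 for MYLK, -0.95 for VIL1 and -1.61 for CNN3. Without Control replicate 2, 13 genes were called, 6 higher and 7 lower. DESeq2, run on the Control and shScrambled samples with none left out, called 6.

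The 2 knockdown lines were also compared directly. Between shAjuba1 and shAjuba2, 14 of the 49 genes were called, 6 higher and 8 lower in shAjuba1, which is 28.6% beside 19.5% of all genes tested (9.43% higher and 10.1% lower). RHOB (log2 difference 1.27), TAGLN2 (1.00), VIL1 (0.99), PDLIM1 (0.95), EZR (0.73) and TPM1 (0.46) were higher in shAjuba1. CNN3 (-1.46), MYLK (-1.18), TLN1 (-0.94), PLS1 (-0.84), ARPC5 (-0.83), MYH9 (-0.56), LIMA1 (-0.54) and MYH10 (-0.40) were lower. AJUBA itself differed by -0.26 (adjusted p = 0.143, edgeR). Without replicate 2 of shAjuba2, 22 genes were called, and without any 1 of the shAjuba1 samples 9 were.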

How the data were processed

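RNA-seq counts of 16 samples from 6 SW480 lines were used. The file deposited by the authors holds raw counts, as whole read pairs for each gene. They prepared stranded mRNA libraries, sequenced paired ends of 50 bases, aligned reads to hg38 with HISAT2 and counted exons with featureCounts. The strand option, annotation release and versions are not given in the sources used here, so genes that overlap on opposite strands are uncertain. Symbols, positions and MANE Select lengths came from GENCODE 44. RPM was the count divided by the sample total, times 1000000.

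Lines were compared with edgeR 4.0.16 in R 4.3.3 (TMM, filterByExpr by line, robust quasi-likelihood test, two-sided) on the 2 lines compared, and on all 16 samples for the difference among lines. Benjamini-Hochberg adjustment ran over all genes tested, with a threshold of 0.05. Standard errors were obtained by dividing |log2 fold change| by the root of the F statistic. The script was tested on simulated data. Alternatives used DESeq2 1.42.0, other scalings and filters, thinned counts, a replicate block, Parental as the control and samples left out. Leaving out replicate 2 of shAjuba2, Control and Ajuba OE together was chosen after seeing the data. Figures were drawn with matplotlib 3.10.9.

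The members and lists were chosen with earlier results of these data known. Every member called in the 3 comparisons with the study's controls is named, and values in every sample are given for the 8 called members with the largest absolute log2 fold change in each and for members called in both knockdown lines. ACTB, ACTG1 and MYL12B were added after their values were seen. Of other actin genes, the 4 called with the largest absolute log2 fold change in each comparison are named.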

Additional observations from a re-analysis of the deposited data

Results flagged for a closer look

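The knockdown lines share their control, so a difference between their effects is the direct contrast of shAjuba1 with shAjuba2, and 14 members passed that test (edgeR, Benjamini-Hochberg). Higher in shAjuba1 were RHOB (log2 difference 1.27, adjusted p = 0.000416), TAGLN2 (1.0, adjusted p = 0.0274), VIL1 (0.99, adjusted p = 0.0034), PDLIM1 (0.95, adjusted p = 0.00695), EZR (0.73, adjusted p = 0.00278) and TPM1 (0.46, adjusted p = 0.0343). Lower in shAjuba1 were CNN3 (-1.46, adjusted p = 0.00744), MYLK (-1.18, adjusted p = 0.000345), TLN1 (-0.94, adjusted p = 0.000601), PLS1 (-0.84, adjusted p = 0.00704), ARPC5 (-0.83, adjusted p = 0.00419), MYH9 (-0.56, adjusted p = 0.0144), LIMA1 (-0.54, adjusted p = 0.0381) and MYH10 (-0.4, adjusted p = 0.0299). LIMA1 and VIL1 were lower than shScrambled in both lines and differ in size, with LIMA1 lower in shAjuba1 and VIL1 lower in shAjuba2. What sets the lines apart was not tested.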

How the results depend on the processing

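Counts of called members are compared here, and the cause of each shift was not tested. The share of all genes called under each setting is not given, so a changed count is no result about the members alone. In shAjuba1 (28 called) the count was 17 in an edgeR fit on all 16 samples and 19 to 32 with 1 sample left out. FLNA and CNN2 turned to -0.17 and -0.10 against Parental. In shAjuba2 (2 called) it was 5 with every gene of at least 1 count tested, 4 with DESeq2, 11 in the fit on all 16 samples, 4 against Parental and 1 to 15 with 1 sample left out, the 15 without shAjuba2 replicate 2. In Ajuba OE (4 called) it was 3 to 4 with 1 sample left out and 7 without replicate 2 of shAjuba2, Control and Ajuba OE. Between shAjuba1 and shAjuba2 (14 called) it was 9 to 22 with 1 sample left out. Between Control and shScrambled (5 called) it was 9 with every gene of at least 1 count and 0 to 13 with 1 sample left out, the 13 without Control replicate 2 and 1 without Control replicate 3. Among the 6 lines (32 called) it was 22 to 36 with 1 sample left out and 42 without replicate 2 of those 3 lines. The replicate numbers were not taken to pair the samples, since no comparison had 3 pairs that all correlated over 0.1. The correlations of the deviations of same-numbered samples ran from -0.06 to 0.05 for shAjuba1 with shScrambled, from 0.07 to 0.19 for shAjuba2 with shScrambled, from -0.05 to 0.51 for Ajuba OE with Control, from -0.03 to 0.03 between the knockdown lines and from 0.19 to 0.23, over 2 pairs, for Control with shScrambled. With the replicate block 30 members were called in shAjuba1, 17 in shAjuba2, 22 in Ajuba OE, 11 between the knockdown lines, 5 between the controls and 36 among the 6 lines. In the 3 comparisons with the study's controls, 436 of 484 values of the called members under the alternatives kept their direction and call, 46 lost the call and 2 turned. Of the 34 calls, 28 of them from shAjuba1, 15 were kept under every alternative in which they were tested. Many of the alternatives are close to each other, so the 484 values are not independent. Where 1 shScrambled sample is left, it is assumed to vary like the other line. Depth limits CNN3 most.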

Other observations

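A list of 91 other actin genes, outside the 49, was read from the same fits. In shAjuba1 against shScrambled 44 of the 85 tested were called, 11 higher and 33 lower (51.8%, beside 38.4% of all genes tested), with FSCN1, the fascin that bundles filopodia, at a log2 fold change of 3.31, the microvillus protein EPS8 at -2.24, the bundler PLS3 at -1.47 and the formin DAAM2 at -1.41. All 11 called genes of filament turnover, of 23 tested, were lower, among them the filament-severing GSN (-0.86), and 12 did not pass. Beside them, 18.2% of all genes tested were called higher and 20.2% lower. Of the genes of at least 10 RPM, 45.0% were called in either direction. The 4 filament turnover genes among the 49 were split, with 2 higher and 1 lower. GSN was also lower in Control than in shScrambled (-0.50, adjusted p = 0.0335, edgeR). In shAjuba2 15 of 87 were called, 5 higher and 10 lower (17.2%, beside 7.46%), with DAAM2 at -3.87, WIPF1 at 3.04, FSCN1 at 2.14 and LMOD1 at -1.44. DAAM2, WIPF1 and LMOD1 had very low levels. WIPF1 was at 0.39, 0.65 and 0.49 RPM in shAjuba2 and at 0.05 and 0.06 RPM in shScrambled. DAAM2 was at 0.24, 0.11 and 0.25 RPM in shAjuba2 and at 3.26 and 2.50 RPM in shScrambled. LMOD1 was at most 1.81 RPM in any sample. In Ajuba OE against Control 10 of 85 were called, 4 higher and 6 lower (11.8%, beside 5.24%), with FLNC, a filamin, at -1.505, DAAM2 at 1.37, CAP2 at -0.92 and ENAH at 0.85. FSCN1 was also lower there (-0.64). The comparisons of the knockdown lines share the shScrambled samples, and between Control and shScrambled DAAM2 differed by -2.15, ARPC3 by 1.47, LMOD1 by -1.14 and FSCN1 by 0.92. Between shAjuba1 and shAjuba2, 21 of 87 were called, 6 higher and 15 lower in shAjuba1 (24.1%, beside 19.5%). WIPF1 differed by -3.17, DAAM2 by 2.47, LCP1 by -1.68 and EPS8 by -1.45. LCP1 was at 0.61, 0.37 and 0.66 RPM in shAjuba1 and at 2.04, 1.73 and 1.77 RPM in shAjuba2.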
